A study of Mus musculus with 30 samples.

Results

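IgE plasma cells (PC) were compared with IgE germinal centre (GC) cells from the same kind of mouse, at the same site and on the same day of infection. The comparison used the 4 IgE PC arrays and the 3 IgE GC arrays, 7 of the 30 arrays in the series, chosen by the cell type and GFP status in the sample labels. The series as a whole set IgE against IgG1 B lymphocytes, and dark zone against light zone GC cells, with Affymetrix Mouse Gene ST arrays. Every mouse carried the CeGFP knock-in on the BALB/c background, in which an IRES-GFP cassette lies in the 3' untranslated region of membrane IgE. All mice had been infected with the intestinal worm Nippostrongylus brasiliensis. Cells came from the mesenteric lymph nodes 10 days later. IgE GC cells were sorted as IgE+GFP+B220+CD95+CD138- and IgE PC as IgE+GFP+CD95+CD138+. Each array was hybridised with RNA from a pool of 3 mice, and the arrays of a group came from separate sorting experiments. GFP in these mice also marks some IgG1 cells that switched to the epsilon gene on the chromosome whose heavy chain is not expressed, so GFP alone does not define an IgE cell. The 3 naive B cell arrays, 3 GFP-positive IgG1 GC arrays and 2 GFP-positive IgG1 PC arrays of the same experiment, from mice of the same knock-in and infection, served for side-by-side levels.

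A GC is a structure in a lymph node in which activated B cells divide, mutate their antibody genes and compete for antigen and T cell help, under the repressor Bcl6. A PC is the end state of the B cell lineage: the factors Irf4, Prdm1 and Xbp1 shut down the B cell programme and enlarge the endoplasmic reticulum (ER), the compartment in which secreted antibody is folded and given its sugars. IgE is the antibody class that arms mast cells and basophils, and worm infection is a classical stimulus for it.

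The deposited values are log2 signals, so a difference of 1 is a doubling; levels were compared within a gene and never between genes. Array medians lay between 5.28 and 5.47, and a value near them is close to the signal of the typical probe set. Correlations between arrays of a group were 0.973 to 0.974 for IgE GC and 0.953 to 0.961 for IgE PC. Agreement was lower in other groups: the 2 IgG1 PC arrays correlated at 0.923 with each other, and the naive arrays at 0.868 to 0.922. In groups used for comparison 2 arrays stood apart from their replicates: naive replicate 1, at a mean correlation of 0.869, and replicate 3 of GFP-positive IgG1 GC, at 0.949. Leaving both out raised the count of genes called below from 2860 to 3272. The sort markers followed the gates: Sdc1, which encodes CD138, was 3.91 higher in PC, and Ptprc, whose B220 isoform was gated in GC cells alone, was 0.77 lower (-0.77). Fas, which encodes CD95 and was gated in both, differed by 0.06 and stood near 8.7 in both groups against 5.04 in naive cells. These were the gates and therefore check the labels only. In sorted pools, fewer cells of a type and less RNA per cell cannot be told apart.

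Lists of markers of other cells the gates could have held were read beside these results. Of 12 measured T cell markers 10 were tested, 1 rose (Thy1, 2.05) and 1 fell (Cd2, -1.93), and 3 lay below the array median on all 7 arrays. The summed T cell marker level, on the log2 scale, was 9.93 to 10.60 in IgE PC and 9.67 to 9.97 in IgE GC. Of the 10 tested, however, 1 (Thy1) had a difference above 0 and 9 were below it, with a median of -0.29. Of the T cell receptor complex genes, Cd3d was at most 4.62 on the PC arrays, under the median of every array, and Cd3e was between 6.17 and 6.57. Macrophage and dendritic cell markers summed to 9.52 to 9.81 in PC and 9.02 to 9.19 in GC; 8 of 14 were tested, Cd68 rose (1.48), Flt3 fell (-0.88), and 7 lay below the median throughout. The Cd68 call was lost without IgE GC replicate 1 (adjusted p = 0.0585) or 2 (0.0515). Neutrophil and eosinophil markers summed to 8.22 to 9.10 in PC and 7.92 to 8.17 in GC, with 6 of 10 tested, 5 below the median throughout and 1 that rose (Prg2, the eosinophil major basic protein, 2.12). No basophil or mast cell marker (3 of 12 tested, 9 below the median; 8.28 to 8.80 against 8.31 to 8.49), natural killer marker (2 of 9 tested, 7 below; 7.50 to 7.62 against 7.15 to 7.51) or erythroid marker (2 of 4 tested, 2 below; 6.99 to 7.21 against 6.84 to 6.94) was called. Stromal and endothelial markers summed to 8.37 to 8.73 against 8.49 to 8.92, with 6 of 9 tested, 3 below the median and 1 that fell (Pecam1, -1.17; lost without IgE GC replicate 1 or 3 or IgE PC replicate 1 or 2, adjusted p = 0.058 to 0.103). Naive and resting B cell markers summed to 10.58 to 11.14 in PC and 12.76 to 12.88 in GC, all 8 measured were tested, and 5 fell. The part of any such cells in the results was not tested.

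Of 12098 genes tested with limma, 2860 differed between IgE PC and IgE GC at an adjusted p under 0.05, which is 23.6 percent. PC were higher for 1235 genes (10.2 percent) and lower for 1625 (13.4 percent), with a median difference over all genes tested of -0.03. These shares are the background for each count below of list genes that rose or fell from IgE GC to IgE PC. A difference of at least 2-fold was called for 784 higher genes (6.48 percent) and 846 lower genes (6.99 percent). Every PC array lay above every GC array for 1201 of the 1235 higher genes, and below for 1558 of the 1625 lower genes. These genes had already been called, and the share without overlap over all genes tested is not given here. Against naive cells, IgE PC differed at 4480 genes (37.0 percent; 2779 higher, 23.0 percent, and 1701 lower, 14.1 percent). The 2 IgG1 PC arrays differed from the 3 GFP-positive IgG1 GC arrays at 2593 genes (21.4 percent; 1007 higher, 8.32 percent, and 1586 lower, 13.1 percent).

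Among the 15 largest rises Trav14-1 ranked first (5.69) and is described after the others. Hid1, a Golgi-associated protein of the secretory pathway, read 10.55, 10.36, 10.04 and 10.56 on the PC arrays and 5.04, 5.20 and 5.65 on the GC arrays (difference 5.08, SE 0.24, limma adjusted p = 4.18e-10). Entpd1, the ectonucleotidase CD39, rose by 4.89, and Bhlha15, the secretory cell factor MIST1, by 4.68. The RNA-binding protein Rbm47 rose by 4.68 as well. Tnfrsf17 (BCMA, receptor of the survival factor APRIL), Cd28, Cd93, Ern1, Creb3l2, Prdm1, Fkbp11, Sec24d and Ankrd55 rose by between 4.13 and 4.63. No overlap between the PC and GC arrays was a condition for a place among these genes, so it is no result about them. The lowest PC array was above 8 in each.

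Trav14-1 and Selenom, the remaining genes among the 15 largest rises, varied widely among the PC arrays. Trav14-1 is annotated as a variable segment of the T cell receptor alpha chain, and it read 10.42, 9.79, 7.88 and 7.35 in PC and 3.34, 3.06 and 3.13 in GC (difference 5.69, SE 0.51). Selenom, a selenoprotein of the ER, read 9.42, 11.15, 7.35 and 8.02 against 4.07, 3.93 and 4.94 (4.67, SE 0.66). PC replicates 1 and 2 were the high arrays in both genes.

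Bcl6, the repressor that holds cells in the GC state, had the largest fall: it read 4.53, 5.43, 5.86 and 4.44 in PC and 10.96, 10.91 and 10.94 in GC (-5.87, SE 0.36, limma adjusted p = 5.37e-09), a 58.6-fold difference. The ADP-ribosyltransferase gene Parp8 fell by 5.83 and the ETS factor Spib by 5.81. Rgs13, a brake on chemokine receptor signalling in GC cells, fell by 4.99; its naive mean was 4.73. Lower too were Myo1e (a membrane-linked myosin), Pax5, Cd22, Mybl1, Cxcr5, Cd86, Bach2, Lpp, Bank1 (an adaptor of the B cell receptor), Tlr1 and Cd72, by between -4.69 and -4.29. As with the rises, only genes with no overlap between IgE PC and IgE GC arrays were ranked here. Pax5 (naive mean 11.35), Cd22 (11.47), Spib (11.13) and Bank1 (11.48) were also high in naive cells, whereas Mybl1 (4.58) and Rgs13 were low there, as the plot of the 30 largest changes shows.

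**Figure D1:**
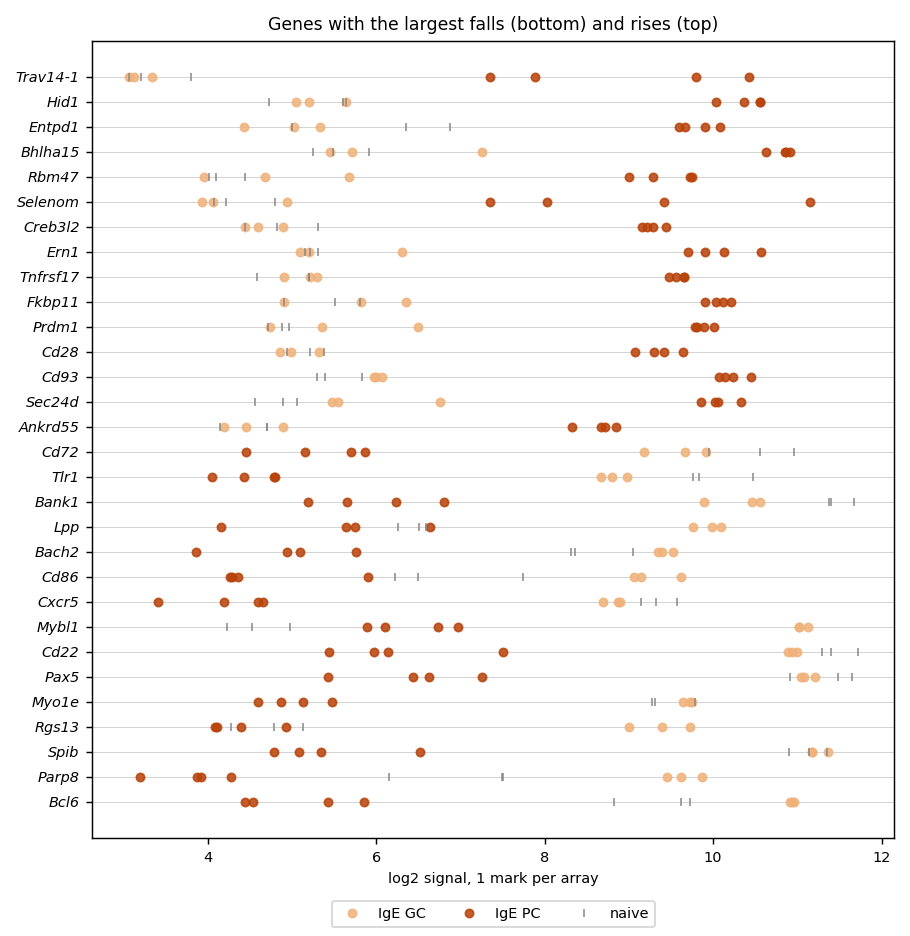
Log2 signal (horizontal axis) of the 15 genes with the largest rise and the 15 with the largest fall from IgE GC to IgE PC, with 1 mark per array for 3 IgE GC, 4 IgE PC and 3 naive arrays. Only genes whose PC and GC arrays do not overlap were ranked. Trav14-1 and Selenom spread over more than 2 units among the PC arrays.

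Most of the listed transcription factors of the PC state rose. Of 10 listed factors, all tested, 6 rose and 2 fell, with a median of 1.85 against -0.03 over all genes. Prdm1 (Blimp-1, the repressor that ends the B cell programme) read 10.01, 9.81, 9.89 and 9.78 in PC and 5.35, 4.74 and 6.49 in GC (4.35, SE 0.29, limma adjusted p = 1.2e-08; 20.4-fold). Irf4 read 11.06, 10.78, 10.92 and 10.91 against 6.98, 6.98 and 7.80 (3.67, SE 0.27, adjusted p = 3.98e-08). Xbp1, the factor that enlarges the ER, read 11.42, 11.00, 11.55 and 11.05 against 8.95, 9.65 and 9.39 (1.93, SE 0.24, adjusted p = 1.36e-05; 3.81-fold). The PC arrays agreed within 0.6 of each other for these factors and lay wholly above the GC arrays. Creb3l2, a membrane-bound factor released from the ER, rose by 4.63, Ell2, the elongation factor that favours secretory heavy chain mRNA, by 1.86, and the ER stress sensor Atf6 by 1.84.

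Pou2af1, a B cell coactivator, differed by 0.18 (adjusted p = 0.54) and Zbtb38 by -0.06 (0.887). Ikzf3 (Aiolos) fell by 0.97 on the log2 scale. Zbtb20 read 8.29, 8.22, 7.50 and 8.35 in PC and 8.87, 9.14 and 9.31 in GC (-1.02, SE 0.34, limma adjusted p = 0.0378). This last call did not hold without IgE GC replicate 1, 2 or 3 or IgE PC replicate 2 or 3 (adjusted p = 0.0547 to 0.129), with the mean of a gene's probe sets (0.0837) or with no filter on dim genes (0.0547).

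Most factors of B cell identity and of the GC fell. Of 25 listed genes 23 were tested, 16 fell and none rose (median -1.63). Pax5, which keeps cells in the B lineage, read 6.62, 7.25, 5.43 and 6.43 in PC and 11.22, 11.08 and 11.04 in GC (-4.68, SE 0.34, limma adjusted p = 2.71e-08). Bach2, which opposes Prdm1, read 3.86, 4.94, 5.09 and 5.75 against 9.40, 9.34 and 9.52 (-4.51, SE 0.32, adjusted p = 2.29e-08). Ciita, the master activator of MHC class II genes, fell by 4.14. Spib and Mybl1 were among the largest falls in the table. The 7 tested factors that were not called were Klf2, Tcf4, Tcf3, Mef2c, Batf, Myc and E2f2, at 0.35 to -0.41. Myc, a transcription factor that drives cell growth, read 8.66, 8.60, 9.22 and 8.32 against 9.23, 9.03 and 9.03 (-0.40, adjusted p = 0.418), so the PC and GC arrays overlapped.

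**Figure D2:**
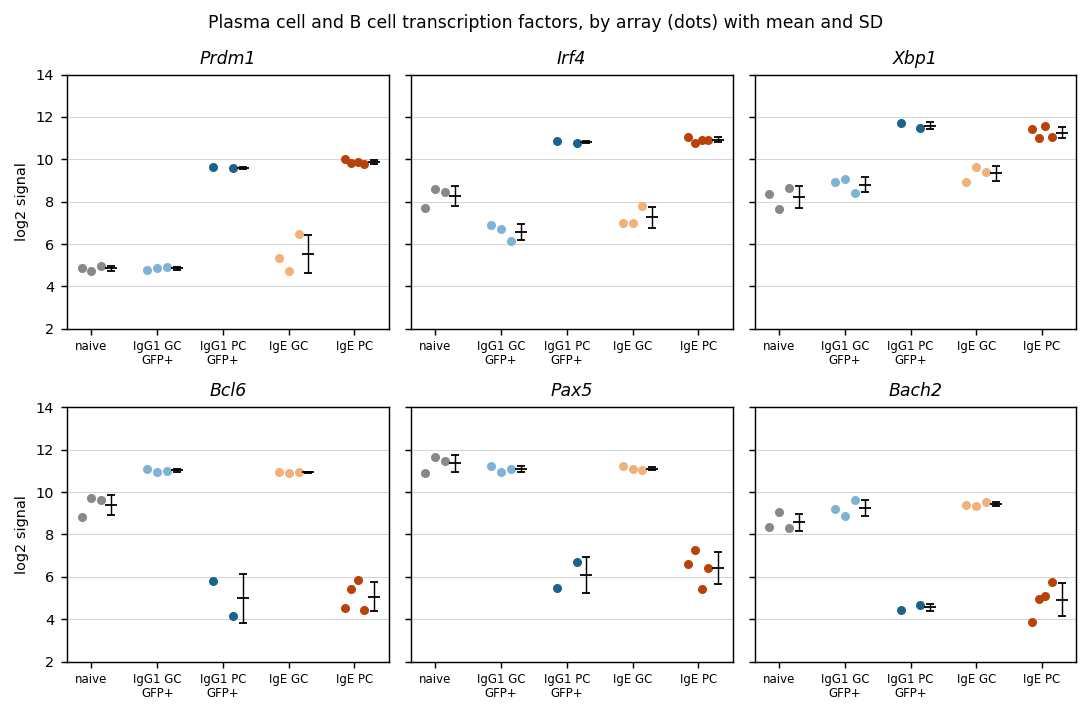
Log2 signal (vertical axis) of 3 PC factors (Prdm1, Irf4, Xbp1) and 3 B cell factors (Bcl6, Pax5, Bach2) in naive, GFP-positive IgG1 GC, GFP-positive IgG1 PC, IgE GC and IgE PC cells, with dots for arrays and bars for mean and SD. IgE PC and IgE GC arrays do not overlap in any panel, and 1 IgE GC array lies above its group for Prdm1 (6.49) and Irf4 (7.80).

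One GC array held the highest GC value more often than the others among genes that rose. The same count over all genes tested is not given here. IgE GC replicate 3 held the highest of the 3 GC values for 554 of the 1235 genes that rose, against 328 for replicate 1 and 353 for replicate 2. In the secretory lists described below it held the highest for 75 of 123. Bhlha15 read 5.45, 5.71 and 7.25 on the GC arrays, and Derl3 7.83, 7.51 and 8.92. For the 1625 genes that fell, the highest GC value lay on replicate 3 for 447, on replicate 1 for 464 and on replicate 2 for 714. Lists of falling genes described below differed in this. Replicate 3 was highest for 21 of 34 G2/M and mitosis genes that fell, and for 4 of 20 B cell receptor signalling genes that fell. A high value on replicate 3 was thus not confined to genes that rose. Without replicate 3, 2262 genes were called (1000 higher and 1262 lower), and 2222 of them were also called with all arrays. Whether this array held cells of the PC gate was not tested.

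Most of the germinal centre programme, a list of genes of GC signalling, repair and migration, fell with Bcl6. Of 18 listed genes 15 were tested, 12 fell and none rose (median -1.78). Against naive cells, however, 8 of the 15 were higher in IgE PC and 2 were lower (median 1.78). Beside Bcl6, Rgs13 and Mybl1, the list held Hmces, which shields damaged single-stranded DNA and fell by 2.25. Gcsam, a GC-restricted regulator of receptor signalling, fell by 2.07. The 3 that were not called were Fas (0.06), Basp1 (-0.42) and Tnfrsf21 (-0.42). Of 31 listed hypermutation, switching and repair genes 27 were tested, 13 fell and none rose (median -0.64). In IgE PC 19 of the 27 were higher than in naive cells and 3 were lower (median 0.98). The largest falls in that list were those of Hmces, the damage kinase Atm (-2.12), the glycosylase Neil1 (-2.10) and Polh (-1.66), the polymerase that writes mutations at A and T bases.

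The genes that build and serve the ER rose nearly throughout. The lists covered ER chaperones and disulfide formation, ER-associated degradation (ERAD), entry into the ER, N-glycosylation and ER to Golgi transport. Together these 5 lists held 136 measured genes, of which 135 were tested, 123 rose and none fell, with a median of 1.69. The background for a rise was the 10.2 percent given above. Against naive cells 124 of the 135 were higher and 1 was lower (median 2.26). The rises ran from 0.55 to 4.38. In 122 of the 123 every PC array was above every GC array. The same was true of 1201 of all 1235 genes called higher, so this separation is no result about the lists.

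Short stretches of promoter are shown first, because the ER lists and the ER stress factors are textbook partners: the ER stress response element (ERSE) and the unfolded protein response element (UPRE) are bound by Atf6 and Xbp1. The promoter window ran from 250 bases before to 50 bases after the annotated gene start, from RefSeq with build GRCm38.p6, and each motif was searched on both strands. ERSE was read as CCAAT and CCACG with 9 bases of any kind between them, and UPRE as TGACGTGG. Among 9623 tested genes with a promoter in the table, 16 held the ERSE letters (0.166 percent). They were found in 10 of the 990 genes that rose (1.01 percent) and in 0 of the 1323 that fell. In the 5 secretory lists 10 of 109 genes held them (9.17 percent), 8 of these among the 25 chaperone genes (32.0 percent). UPRE letters were present in 108 genes (1.12 percent): 29 of those that rose (2.93 percent), 9 of those that fell (0.680 percent) and 10 of the 109 secretory genes (9.17 percent). A match is a description of the letters and was not tested as a binding site. Capitals mark the motif, and each stretch is written on the strand of its gene; a motif that reads CGTGG to ATTGG lies on the opposite strand.
Derl3, ERSE, chr10:75893237-75893266, plus strand: tctacCGTGGGACTTCCCCATTGGctagcc
Creld2, ERSE, chr15:88819515-88819544, plus strand: cttctCGTGGCGAGCCTCAATTGGtccaca
Dnajc3, ERSE, chr14:118937822-118937851, plus strand: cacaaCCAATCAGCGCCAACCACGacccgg
Pdia6, ERSE, chr12:17266486-17266515, plus strand: agagaCCAATGAAAGGCGGCCACGgcgtgg
Hspa5, ERSE, chr2:34772020-34772049, plus strand: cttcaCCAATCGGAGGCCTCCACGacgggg
Calr, ERSE, chr8:84847069-84847098, minus strand: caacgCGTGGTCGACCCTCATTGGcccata
Hsp90b1, ERSE, chr10:86705632-86705661, minus strand: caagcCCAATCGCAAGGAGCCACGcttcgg
Canx, ERSE, chr11:50325794-50325823, minus strand: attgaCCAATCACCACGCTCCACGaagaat
Sec24d, UPRE, chr3:123267459-123267488, plus strand: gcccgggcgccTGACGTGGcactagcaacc
Txndc5, UPRE, chr13:38528034-38528063, minus strand: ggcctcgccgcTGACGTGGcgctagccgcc
Txndc11, UPRE, chr16:11134616-11134645, minus strand: tgaagtgtggcTGACGTGGagagtccgggt
Vcp, UPRE, chr4:43000603-43000632, minus strand: ctgcggccaatTGACGTGGcgttactaggc

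These genes rose by unequal amounts. The ERSE letters began between 65 bases (Hspa5) and 212 bases (Hsp90b1) before the gene start. Hspa5 (BiP, the main ER chaperone) read 12.43, 12.41, 12.49 and 12.50 in PC and 10.46, 10.56 and 10.77 in GC (1.86, SE 0.15, limma adjusted p = 1.35e-07; 3.64-fold). Derl3, a channel component of ERAD, rose by 3.72 and Creld2, an ER stress-induced protein, by 3.40. Calnexin (Canx), with the same letters, rose by 0.68 (adjusted p = 0.0102). The other ERSE genes shown were Dnajc3 (2.73), Pdia6 (2.26), Calr (1.73) and Hsp90b1 (1.58). Among the UPRE genes Sec24d, a cargo adaptor of vesicles that leave the ER, rose by 4.14 and the ATPase Vcp by 1.18, with Txndc5 (2.47) and Txndc11 (2.09) between them. The genes shown with the same letters thus differed in their rise, from 0.68 to 3.72 for ERSE and from 1.18 to 4.14 for UPRE.

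The unfolded protein response list held the sensors and effectors that read ER load. Of 19 listed genes 17 were tested, 10 rose and none fell (median 1.00). Ern1, which encodes the sensor IRE1 alpha that splices Xbp1 mRNA, read 10.57, 9.90, 9.70 and 10.13 in PC and 5.20, 5.10 and 6.31 in GC (4.54, SE 0.32, limma adjusted p = 2.03e-08). Chac1, a target of the Atf4 branch, rose by 1.79. Ddit3 (CHOP) rose by 1.06 and Atf4 by 0.73. Eif2ak3, the sensor PERK that acts upstream of Atf4, differed by -0.29 and Ppp1r15a, the phosphatase subunit that ends that branch, by 0.63, and neither was called. The IRE1 and Atf6 sensors therefore rose and the PERK gene was not called, while Ddit3 and Atf4 passed the test with smaller differences than Ern1.

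Chaperones and disulfide enzymes rose almost to the last member. Of 31 listed genes 30 were tested and 29 rose (median 1.98); Ero1b, at 0.33, was the exception. Fkbp11, a prolyl isomerase of the ER, read 9.91, 10.12, 10.22 and 10.04 against 4.90, 5.82 and 6.35 (4.38, SE 0.29). Pdia4, a disulfide isomerase, rose by 3.54 and Dnajb9, a cochaperone of BiP, by 3.40. In ERAD, which returns misfolded proteins to the cytosol, 20 of 21 listed genes were tested and 18 rose (median 1.51), led by Derl3, the mannose trimming factor Edem2 (3.06), the adaptor Sel1l (2.53) and the lectin Os9 (2.45). Faf2 (0.29) and Ube2g2 (0.50) were not called.

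Entry into the ER and the addition of sugars rose as well. Of 24 listed genes of the signal recognition particle, the translocon and signal peptidase, 22 were tested and 21 rose (median 1.72). Srprb, an anchor of the signal recognition particle receptor, rose by 3.04, Tram2 by 2.74, and the translocon-associated subunits Ssr4 and Ssr2 by 2.46 and 2.33. Sec11a, a signal peptidase subunit, was at 0.79 and was not called. In N-glycosylation all 25 listed genes were tested and 21 rose (median 1.65). Ddost, a subunit of the oligosaccharyltransferase, rose by 2.76, and the catalytic subunit Stt3a by 2.03. Its paralogue Stt3b was at 0.47 and was not called, as were Tusc3 (-0.35), Pmm2 (-0.06) and Dpm2 (-0.02). Gfpt1, the first enzyme of the hexosamine pathway, rose by 2.51 and Gmppb, which makes GDP-mannose, by 2.25.

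ER to Golgi transport had 38 tested genes of 39 listed, and 34 rose (median 1.49). After Sec24d the largest rises were those of the SNARE gene Bet1 (3.11), the glycoprotein cargo receptor Lman1 (2.90) and Tmed3 (2.81). Tmed3 read 6.32, 6.84 and 7.75 on the GC arrays, with replicate 3 again highest. Trappc1 (-0.72), Cog4 (-0.04), Sar1b (0.67) and Sec24c (0.69) were not called. Without IgE GC replicate 3 the counts of rises in these lists were 26 for chaperones, 18 for ERAD, 21 for ER entry, 20 for N-glycosylation and 31 for transport, and 10 for the unfolded protein response. These counts were within a few genes of those with all arrays.

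**Figure D3:**
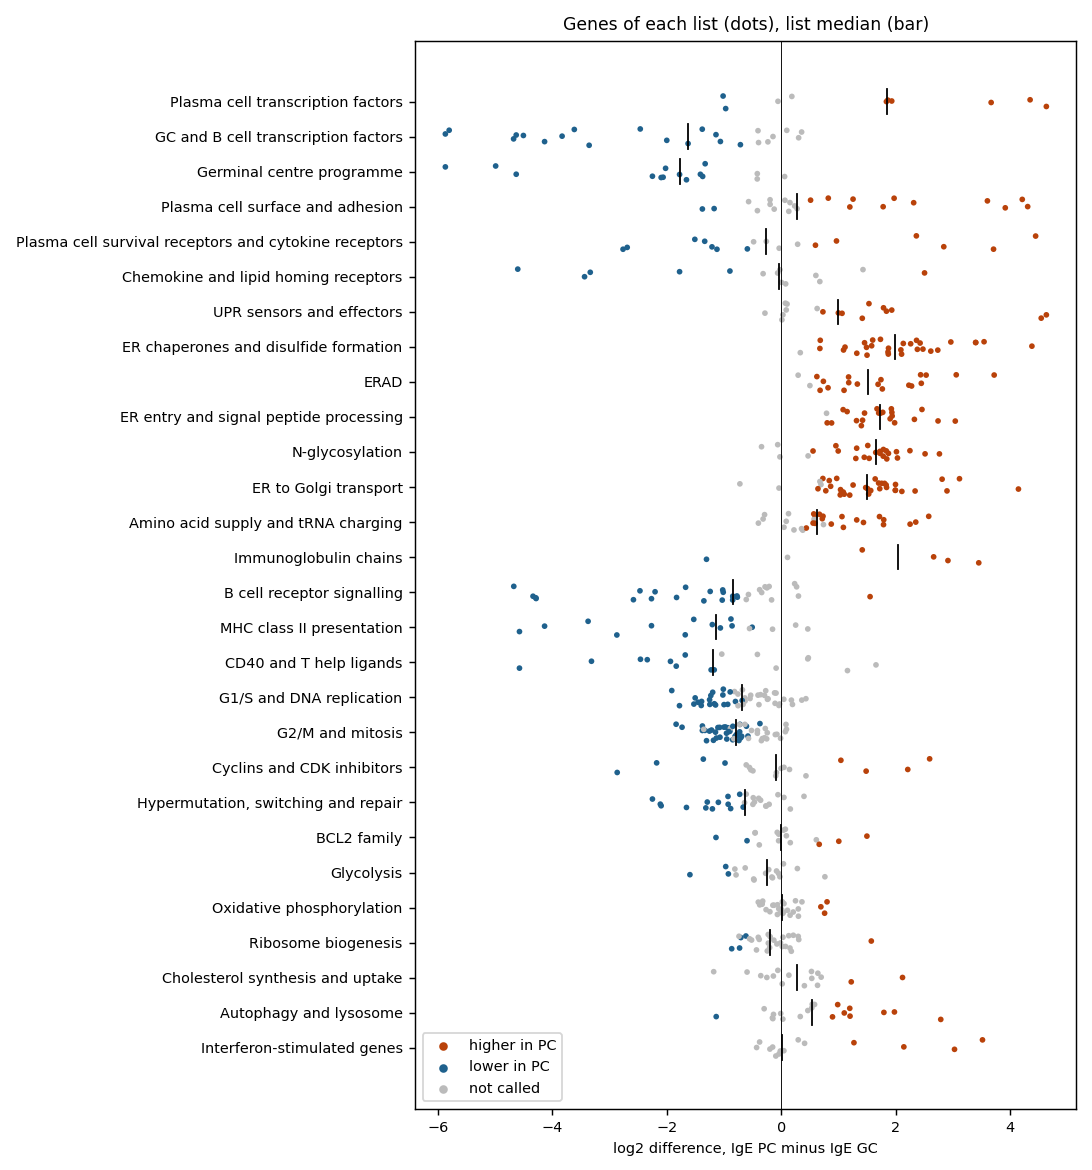
Log2 difference, IgE PC minus IgE GC (horizontal axis), of each tested gene in 28 gene lists, with coloured dots for genes called higher or lower at adjusted p under 0.05 and a bar for the list median. The 5 ER and Golgi lists have medians from 1.49 to 1.98, with a few genes below 0 in N-glycosylation (lowest -0.35) and ER to Golgi transport (lowest -0.72), and the B cell and GC factor lists reach furthest to the left (-5.87).

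Amino acid supply rose in part. The list of transporters, synthesis enzymes and tRNA charging enzymes had 35 genes, of which 30 were tested, 19 rose and none fell (median 0.63). Many of these genes are known targets of Atf4 through the CCAAT/enhancer-binding protein and ATF response element (CARE), so its letters, TGATGCAA, were searched in the same window and on both strands. They were present in 69 of 9623 genes (0.717 percent) and in 5 of the 22 list genes with a promoter (22.7 percent). With only the 250 bases before the start they were present in 61 of 9623 (0.634 percent) and in 3 of the 22 (13.6 percent). The matches wholly before the start of genes that rose are shown; all lie on the opposite strand.
Got1, CARE, chr19:43524689-43524718, minus strand: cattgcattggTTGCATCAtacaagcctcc
Chac1, CARE, chr2:119351038-119351067, plus strand: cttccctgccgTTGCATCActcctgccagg
Tars, CARE, chr15:11399659-11399688, minus strand: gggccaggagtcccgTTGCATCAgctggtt

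Got1, the aspartate aminotransferase shown above, read 9.40, 9.62, 9.24 and 9.88 in PC and 7.30, 7.72 and 6.83 in GC (2.25, SE 0.46, limma adjusted p = 0.00156). Slc7a3, a transporter of cationic amino acids, read 6.93, 6.04, 6.56 and 6.65 against 4.28, 3.86 and 3.75 (2.58, SE 0.25, adjusted p = 7.46e-07). Slc3a2, the heavy chain of several amino acid transporters, rose by 2.35 and Aldh18a1, the first enzyme of proline synthesis, by 1.79. The threonyl tRNA synthetase Tars rose by 1.06. This count depended on single arrays: 10 genes rose without IgE GC replicate 1 and 12 without replicate 3. In IgG1 cells 5 of the 30 were called higher (median 0.33), against 8.32 percent of all genes. The difference between the lists was not tested.

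Few immunoglobulin genes could be read, since the epsilon, gamma-1 and kappa constant genes were not analysed here. Of 15 listed genes 6 were tested, 4 rose and 1 fell. Jchain, the chain that joins IgM and IgA into polymers, read 12.72, 12.64, 12.68 and 12.67 in PC and 11.01, 11.22 and 11.56 in GC, against 5.36 in naive cells (1.41, SE 0.44, limma adjusted p = 0.026). Its call was lost without IgE GC replicate 1 or 2 or IgE PC replicate 1 (adjusted p = 0.0519 to 0.0973). Ighm rose by 2.66, Igha by 2.91 and Ighg3 by 3.45 (11.14, 10.33, 8.79 and 9.37 in PC against 5.50, 6.88 and 6.99 in GC). These constant regions are related in sequence to each other and to those of IgE and IgG1, so which heavy chain gave the signal is uncertain. Vpreb3, a B lineage chaperone of immunoglobulin chains, fell by 1.31, and Igll1 was at 0.11.

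Surface proteins of PC rose in part. Of 28 listed genes of the PC surface and adhesion 23 were tested, 11 rose and 2 fell (median 0.28). Over all genes 10.2 percent rose and 13.4 percent fell. Cd28, the costimulatory receptor that also serves long-lived PC, read 9.29, 9.42, 9.65 and 9.08 in PC and 4.99, 4.86 and 5.31 in GC (4.31, SE 0.20, limma adjusted p = 4.18e-10). Cd93, a lectin-like receptor of long-lived PC, read 10.45, 10.24, 10.14 and 10.07 against 5.98 to 6.06 (4.21, SE 0.22, adjusted p = 9.25e-10). Tigit, a receptor better known on T cells, rose by 3.60. In these genes the GC arrays lay near the naive mean, 5.18 for Cd28, 5.51 for Cd93 and 6.39 for Tigit, and the PC arrays stood far above it. The genes that fell were Cd37, a tetraspanin of B cells (-1.38), and Pecam1 (-1.17), whose call was lost without some arrays as given above.

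Receptors for survival factors and cytokines moved in both directions. Of 19 listed genes 17 were tested, 6 rose and 7 fell (median -0.26), against 10.2 percent of all genes that rose and 13.4 percent that fell. Tnfrsf17 read 9.48, 9.65, 9.56 and 9.65 in PC and 5.22, 4.90 and 5.30 in GC (4.44, SE 0.29, limma adjusted p = 1.05e-08; 21.8-fold). Il5ra, the alpha chain of the interleukin 5 receptor, read 9.25, 8.82, 8.78 and 9.57 against 5.49, 5.87 and 4.83 (3.71, SE 0.29, adjusted p = 7.72e-08). Il6st, the shared signalling chain gp130, rose by 2.84, Il13ra1 by 2.36, Ifnar1 by 0.96 and Tnfrsf13b (TACI) by 0.60. Il21r, the receptor for the follicular T cell cytokine interleukin 21, fell by 2.77, and Il4ra by 2.69. Tnfrsf13c, the BAFF receptor of mature B cells, fell by 1.51. Il21r and Il4ra were thus lower, and the receptors for APRIL and interleukin 5 higher, in PC.

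Most homing receptors were not called. Of 18 listed genes 14 were tested, 1 rose and 5 fell (median -0.05). Over all genes tested 10.2 percent rose and 13.4 percent fell, so the count of rises is near its background. Ccr10, a chemokine receptor of mucosal PC, read 8.20, 8.24, 8.72 and 7.94 in PC and 5.60, 5.66 and 6.06 in GC (2.50, SE 0.19, limma adjusted p = 4.33e-08). The follicle receptor Cxcr5 read 4.60, 4.65, 3.41 and 4.19 against 8.87, 8.90 and 8.70 (-4.61, SE 0.28, adjusted p = 4.15e-09). Cxcr4, the receptor that guides PC to bone marrow and GC cells to the dark zone, read 9.55, 10.45, 9.81 and 10.13 against 10.80, 10.98 and 10.86 (-0.90, SE 0.19, adjusted p = 0.00162). Cxcr4 was thus lower in PC but far above the array median in both groups. S1pr3 fell by 3.44, the cannabinoid receptor Cnr2 by 3.34, and S1pr2, which confines cells to the GC, by 1.78. The list's rises numbered 2 without IgE PC replicate 1 or 2 or with quantile normalization, 3 without the 2 arrays that stood apart, and 4 when the fit held the compared groups alone.

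Most genes of B cell receptor signalling fell. Of 36 listed genes 32 were tested, 20 fell and 1 rose (median -0.85). Cd22, which dampens receptor signals, read 6.14, 7.50, 5.97 and 5.44 in PC and 10.99, 10.89 and 10.93 in GC (-4.68, SE 0.34, limma adjusted p = 3.46e-08). Bank1 fell by 4.34, Cd72 by 4.29 and the complement receptor Cr2 by 4.29. The receptor's own signalling chains had smaller differences. Cd79a read 10.98, 11.05, 11.02 and 11.20 against 11.84, 11.95 and 11.94 (-0.85, SE 0.15, adjusted p = 0.00033). Cd79b fell by 0.84. Ptpn22, a phosphatase that restrains antigen receptor signals, was the gene that rose (1.55); at 5.80 in PC and 4.25 in GC it stayed below the naive mean of 8.92.

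Most antigen presentation genes fell, with the largest differences at a regulator and a costimulatory ligand. Of 18 listed MHC class II genes 16 were tested, 12 fell and none rose (median -1.14). Ciita read 5.52, 6.42, 5.18 and 5.26 in PC and 9.71, 9.74 and 9.73 in GC (-4.14, SE 0.24, limma adjusted p = 3.01e-09). The peptide editors H2-Oa and H2-Ob fell by 3.38 and 2.87, and the costimulatory ligand Cd86 by 4.58. The 4 that were not called were the peptide-binding chain H2-Ab1 (-0.56), the invariant chain Cd74 (-0.15), Ctss (0.25) and Cd80 (0.46). Among genes of CD40 and T help 16 of 20 were tested, 9 fell and none rose (median -1.20). Cd83, a light zone marker, fell by 3.32, Icosl, the ligand of ICOS on T cells, by 2.46, and Slamf1 by 2.34.

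Many proliferation genes fell, with list medians of less than 1 log2 unit, and stood far above naive cells. Of 56 listed G2/M and mitosis genes 55 were tested, 34 fell and none rose (median -0.79). Of 47 listed G1/S and replication genes 46 were tested, 20 fell and none rose (median -0.68). The background for a fall was the 13.4 percent above. Against naive cells, however, IgE PC were higher for 54 of the 55 G2/M genes (median 2.68, none lower) and for 41 of the 46 G1/S genes (median 1.69, 2 lower). IgE PC thus held cell cycle transcripts at levels between naive and GC cells, and closer to GC cells by these medians.

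A promoter motif sets G2/M genes apart in textbooks, so its letters were counted here too: the cell cycle genes homology region (CHR), TTTGAA, which the DREAM and MuvB complexes bind. Searched on both strands in the same window, it was present in 1361 of 9623 genes (14.1 percent) and in 34 of the 45 G2/M genes with a promoter (75.6 percent). With only the 250 bases before the start it was present in 1213 of 9623 genes (12.6 percent) and in 17 of the 45 (37.8 percent). Among all genes that fell 226 of 1323 held it (17.1 percent), against 118 of 990 that rose (11.9 percent). Stretches before the start of 4 G2/M genes that fell are shown, with the letters reading TTCAAA where they lie on the opposite strand.
Kif15, CHR, chr9:122950835-122950864, plus strand: gccgactctctcTTTGAAgcgggacaggaa
Depdc1a, CHR, chr3:159495403-159495432, plus strand: ttcgctcggagataTTCAAAtcagcagcgc
Ect2, CHR, chr3:27153975-27154004, minus strand: ccgtttaccggaTTTGAAacacactcacaa
Kif2c, CHR, chr4:117178858-117178887, minus strand: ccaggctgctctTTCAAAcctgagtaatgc

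The spindle motor Kif15 read 7.54, 7.56, 7.39 and 7.62 in PC and 8.56, 9.06 and 8.97 in GC, with a naive mean of 4.80 (-1.34, SE 0.24, limma adjusted p = 0.000485). Depdc1a fell by 1.31, the cytokinesis factor Ect2 by 1.19 and the kinesin Kif2c by 1.11. The largest falls among mitosis genes were those of Kif23 and Cenpe, motors of the midbody and the kinetochore. Kif23 read 7.81, 7.82, 8.06 and 7.54 against 9.61, 9.54 and 9.79 (-1.84, SE 0.15, adjusted p = 9.73e-08), and Cenpe fell by 1.74. Mki67, the proliferation marker Ki-67, read 10.53, 10.61, 10.62 and 10.65 in PC, 10.98, 10.99 and 10.96 in GC and 4.91 on average in naive cells (-0.37, SE 0.12, adjusted p = 0.0266; 1.30-fold). The Mki67 call was lost without IgE GC replicate 1, 2 or 3 or IgE PC replicate 1 (adjusted p = 0.0671 to 0.082). In replication genes Pola1, the primase-associated polymerase, fell by 1.92, Pold1 by 1.78, and the maintenance methylation genes Uhrf1 and Dnmt1 by 1.53 and 1.51.

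Among regulators of the G1 phase most genes were not called. Of 19 listed cyclins and inhibitors 18 were tested, 4 rose and 4 fell (median -0.09). Over all genes 10.2 percent rose and 13.4 percent fell. Ccnd3, the D-type cyclin of GC cells, read 7.83, 7.41, 7.89 and 7.55 in PC and 9.57, 9.94 and 10.03 in GC (-2.18, SE 0.23, limma adjusted p = 2.13e-06). Ccnd2 moved the other way: 9.53, 9.32, 9.45 and 9.24 against 7.06, 6.19 and 7.13 (2.59, SE 0.30, adjusted p = 6.15e-06; 6.03-fold). The inhibitor Cdkn1b (p27) read 8.33, 8.60, 8.18 and 8.46 against 5.93, 6.30 and 6.31, with a naive mean of 8.37 (2.21, SE 0.21, adjusted p = 5.52e-07). PC thus had Cdkn1b near the naive mean and Mki67 near the GC arrays. Rb1 (1.48) and Btg2 (1.04) also rose, and the antiproliferative Btg1 (-2.87), Cdkn2d (-1.36) and Rbl1 (-0.98) fell.

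**Figure D4:**
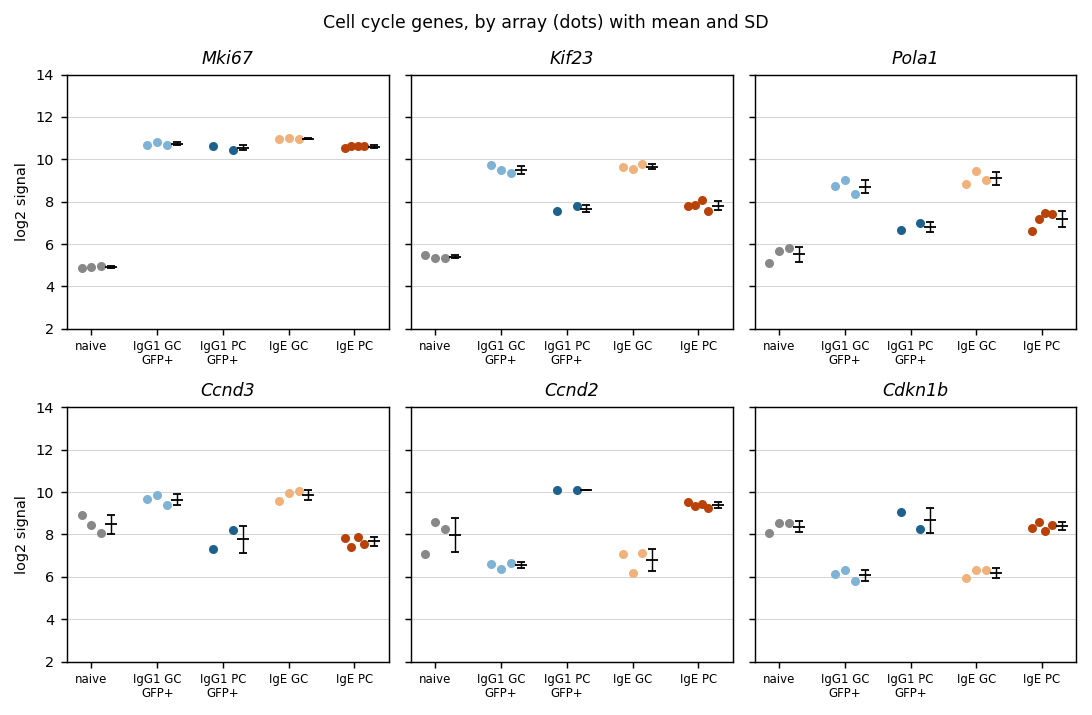
Log2 signal (vertical axis) of 6 cell cycle genes in naive, GFP-positive IgG1 GC, GFP-positive IgG1 PC, IgE GC and IgE PC cells, with dots for arrays and bars for mean and SD. Mki67 lies above 10 in both IgE groups and at 4.91 in naive cells, while Cdkn1b in IgE PC lies at the naive level and Ccnd2 and Ccnd3 move in opposite directions.

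Genes of the BCL2 family, which decide between survival and death, gave 3 rises and 2 falls among 16 tested of 20 listed (median 0.00), against 10.2 percent of all genes that rose and 13.4 percent that fell. Bcl2l11, which encodes the death-promoting BIM, read 10.47, 9.59, 9.73 and 9.79 in PC and 8.32, 8.79 and 8.10 in GC (1.50, SE 0.28, limma adjusted p = 0.000726). The protective Bcl2l2 rose by 1.00. Bcl2l1 (Bcl-xL) rose by 0.66 (adjusted p = 0.0392), a call lost without IgE GC replicate 1 or 2 or IgE PC replicate 1, 3 or 4 (adjusted p = 0.0739 to 0.21), with no filter on dim genes (0.0516) or with quantile normalization (0.0546). Bcl2 read 5.85, 6.80, 6.96 and 8.50 against 6.57, 6.14 and 6.54 (0.61, adjusted p = 0.359), so its arrays overlapped, with PC replicate 4 highest. Mcl1, on which PC survival depends, was at 0.16 (adjusted p = 0.538). Bak1 (-0.60) and Bnip3 (-1.14) fell, and the Bnip3 call was lost without IgE GC replicate 1 (adjusted p = 0.0764) or 2 (0.0877). The list had no falls without IgE GC replicate 1 or 2, and 1 without IgE PC replicate 1 or 4.

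Energy metabolism genes mostly did not pass the test. In glycolysis 18 of 23 listed genes were tested and 3 fell (median -0.25; 13.4 percent of all genes fell): Aldoc (-1.60), Ldha (-0.97) and Tpi1 (-0.93). The Tpi1 call was lost without IgE GC replicate 1 or 2 or IgE PC replicate 2 or 4 (adjusted p = 0.0506 to 0.124), and the list had 5 falls without IgE GC replicate 3. In oxidative phosphorylation 29 of 30 were tested and 3 rose (median 0.01): Ndufa4 (0.80), Sdhc (0.76) and Cycs (0.69). That share is near the 10.2 percent of all genes that rose, so it is no result about the list. Without IgE GC replicate 1 or 2 the list had 1 rise; Sdhc was lost without either or without IgE PC replicate 4 (adjusted p = 0.0508 to 0.0792), and Cycs without either or without IgE PC replicate 1, 2 or 3 (0.0666 to 0.203). Cycs was also lost with the mean of a gene's probe sets, at 0.43 (adjusted p = 0.188), and with quantile normalization (0.0645). Against naive cells 26 of the 29 were higher, with a median of 1.04.

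Ribosome biogenesis had all 28 listed genes tested, 1 risen and 4 fallen (median -0.20). The share of falls is near the 13.4 percent over all genes. The nucleolar GTPase Gnl3 rose by 1.57, and Nip7 (-0.87), fibrillarin (Fbl, -0.73), nucleophosmin (Npm1, -0.71) and Gar1 (-0.62) fell. The falls numbered 1 without IgE GC replicate 2 and 2 without replicate 3. Npm1 was lost without GC replicate 2 (adjusted p = 0.052), and Fbl without any 1 GC array or IgE PC replicate 1 or 4 (0.0539 to 0.0807). With the mean of its probe sets Fbl was at -0.15 (adjusted p = 0.871). In cholesterol synthesis 16 of 21 were tested and 2 rose (median 0.27; 10.2 percent of all genes rose), Insig1 by 2.12 and Nsdhl by 1.22.

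Autophagy and lysosome genes had all 20 listed members tested, with 8 risen and 1 fallen (median 0.54). Over all genes 10.2 percent rose and 13.4 percent fell. The lysosomal protease Ctsd read 10.24, 9.65, 9.89 and 9.87 in PC and 6.42, 7.55 and 7.40 in GC (2.79, SE 0.27, limma adjusted p = 8.25e-07). Wipi1, a phosphoinositide sensor of autophagosome formation, rose by 1.98, Ctsb by 1.79 and the conjugation factor Atg5 by 1.20. Tfeb, the factor that drives lysosomal genes, was the member that fell (-1.14). Of 24 interferon-stimulated genes 14 were tested and 4 rose (median 0.01), against 10.2 percent of all genes. The 4 were the nuclease Isg20 (3.52), the RNA sensor Ddx58 (3.03), the tether Bst2 (2.14) and Trim30a (1.27). Classical members such as Irf7 (0.30), Oas2 (-0.20) and Stat2 (-0.43) were not called, so the list did not move as a block.

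The same step in IgG1 cells is given side by side. Over all genes tested 8.32 percent rose and 13.1 percent fell in IgG1 cells. Of the 10 PC factors tested 6 rose and 1 fell (median 2.09), and of the 23 B cell and GC factors 15 fell (median -1.76). Rises numbered 26 of 30 for chaperones, 16 of 20 for ERAD, 20 of 22 for ER entry, 19 of 25 for N-glycosylation and 33 of 38 for transport. The 55 G2/M genes tested had 13 falls in IgG1 cells (median -0.47), against 13.1 percent of all genes. In IgE cells they had 34 falls (median -0.79), against 13.4 percent. These counts rest on different numbers of arrays, 2 for IgG1 PC and 4 for IgE PC. Whether a gene changed more in one class was tested as the IgE difference minus the IgG1 difference, which passed for 11 genes (0.0909 percent), 8 with a higher and 3 with a lower value in IgE cells; 822 genes had an unadjusted p under 0.05.

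Ifitm3, an antiviral membrane protein, differed most. It read 3.89, 3.73, 3.70 and 4.67 in IgE PC and 4.38, 4.19 and 3.88 in IgE GC, but 7.53 and 7.38 in IgG1 PC against 4.53, 4.47 and 4.46 in IgG1 GC (-3.12, SE 0.40, limma adjusted p = 0.00688). It rose in IgG1 cells and was not called in IgE cells. Smad3, a mediator of TGF-beta signals, read 6.71, 7.11, 6.29 and 6.25 in IgE PC and 6.51, 5.97 and 5.88 in IgE GC, against 8.80 and 8.85 in IgG1 PC and 6.16, 6.08 and 6.15 in IgG1 GC (-2.22, SE 0.30, adjusted p = 0.00944). Isoc1 fell by 0.97 in IgE cells and rose by 1.38 in IgG1 cells (-2.35, adjusted p = 0.0367). Without IgE GC replicate 3 its IgE difference was -0.65 and was not called (adjusted p = 0.102).

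Among genes with the higher value in IgE cells, Enam, a gene named for an enamel matrix protein, read 7.28, 7.09, 6.85 and 7.19 in IgE PC and 4.15, 3.56 and 3.45 in IgE GC. In IgG1 cells it read 3.72 and 4.58 in PC and 3.32, 4.20 and 3.12 in GC (2.79, SE 0.40, limma adjusted p = 0.00987). Slc7a3, described above, rose by 2.58 in IgE cells and was at 0.35 in IgG1 cells (2.23, adjusted p = 0.0367). Hvcn1, the voltage-gated proton channel of B cells, fell in both classes, by 1.75 in IgE cells and by 3.67 in IgG1 cells (1.92, adjusted p = 0.0164). Gcsam also fell in both, by 2.07 and 3.97 (1.90, adjusted p = 0.0268). Amn1 was at 0.39 in IgE cells and fell by 1.64 in IgG1 cells (2.03, adjusted p = 0.0268). The remaining 3 were Cilk1 (1.48), Samsn1 (1.52) and Ulk2 (1.38), each with adjusted p = 0.0367.

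**Figure D5:**
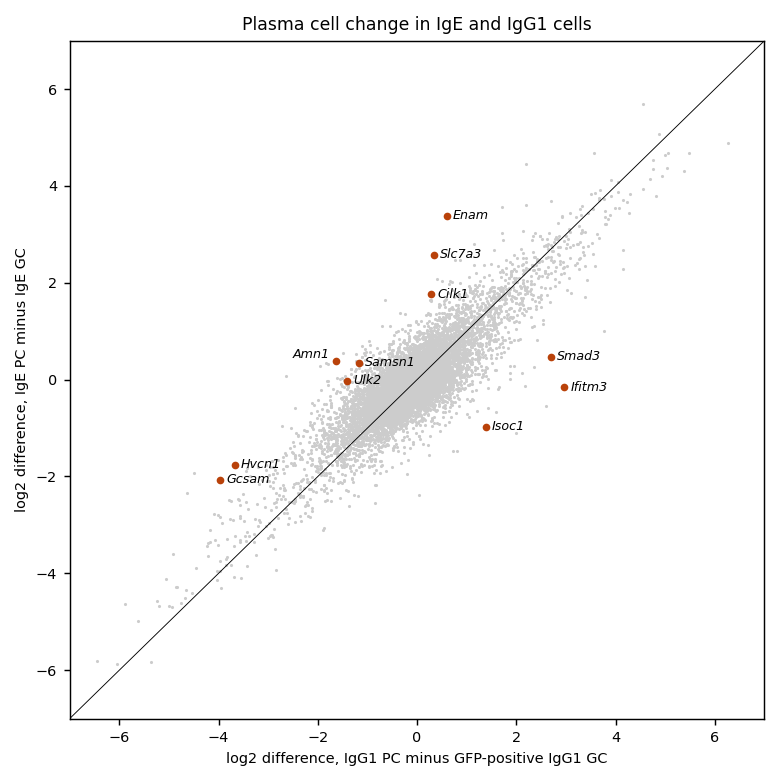
Log2 difference of PC minus GC in IgE cells (vertical axis) against the same in GFP-positive IgG1 cells (horizontal axis), 1 dot per tested gene, with the line of equal change and the 11 genes whose changes differed at adjusted p under 0.05 in colour. Ifitm3, Smad3 and Isoc1 lie below the line and the other 8 above it.

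The survival receptor Tnfrsf17 fell short of that test. It rose by 4.44 in IgE cells and by 2.19 in IgG1 cells, where PC read 7.62 and 5.91 (2.26, limma adjusted p = 0.0756). Fcer2a, the low-affinity IgE receptor CD23, fell by 1.94 in IgE and 4.49 in IgG1 cells (2.55, adjusted p = 0.0594), and Slamf1 by 2.34 and 4.63 (2.28, adjusted p = 0.0594). The count of 11 changed with the arrays used: it was 35 or 37 without 1 or the other IgG1 PC array, 2 to 7 without any 1 GC array of either class or without IgE PC replicate 4, 1 when the fit held the compared groups alone, and 23 when GFP-negative IgG1 GC cells were the IgG1 reference. Ifitm3 was called in all 20 settings in which it was tested, Smad3 in 20 of 21, Enam in 19 and Hvcn1 in 17. Gcsam was called in 12 of the 21, Amn1 in 11, Isoc1 in 10 and Cilk1 in 9, and Slc7a3, Samsn1 and Ulk2 in 7 each.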

How the data were processed

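RNA from sorted mouse lymph node B cells was hybridised to Affymetrix Mouse Gene ST arrays after amplification of 2 ng of total RNA and labelling of 5 ug of cDNA, per the labels' protocols. The deposited values are log2 signals that the authors made by RMA with R version 2.15.2 according to the submitters' processing notes; RMA subtracts background, sets probe signals of all arrays to 1 distribution and summarises probes, which hides a change in RNA content of the cells and compresses differences of dim genes. No source used here gives a batch or date.

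Of 34760 probe sets, 21640 had 1 gene symbol in the platform annotation, 1321 had several and 11799 had none; the last 2 kinds were left out. Of the first, 21553 matched a RefSeq gene ID (GRCm38.p6). Where a gene had more than 1 probe set (954 of 19937 genes), the one with the highest mean signal was used. Genes above the array median on at least 2 of the 18 arrays of the first experiment were tested (12098). A linear model over those 18 arrays and 6 groups was fitted with limma 3.58.1 (lmFit, eBayes) in R 4.3.3, so the groups shared 1 estimate of the spread, and p-values were adjusted by Benjamini-Hochberg over all genes tested; genes under 0.05 were called. Differences between the IgE and IgG1 changes were tested as an interaction in the same fit. The arrays of a group are separate pools of 3 mice; the number of arrays limits the precision.

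The comparison and the gene lists (28, and 8 of markers of cell types; 716 genes, 660 tested) were chosen with earlier results of these data known. Genes named are the 15 largest rises and falls without overlap of arrays, the 4 largest called genes of each list, a fixed set of 25 regulators and sort markers, the 5 largest interactions in each direction and members of lists of up to 10 measured genes (149 genes). Genes shown for a promoter motif, or that make up a small count or its exceptions, were named after their values were seen. Promoter letters were counted with Python 3.11.15 and pandas 2.3.3, and figures drawn with matplotlib 3.10.9. On simulated data of 12098 genes for this comparison, the fit recovered 56 percent of rises and 68 percent of falls of 1 log2 unit and 98 and 100 percent of those of 2 units, with 5.29 percent false calls. In it 50 genes were given each change, a far smaller share than the 23.6 percent called here. Recovery in the real data can therefore differ. Alternatives were other filters, probe set rules, normalization, an intensity trend, fewer arrays, each replicate left out, a replicate block and another IgG1 reference.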

Additional observations from a re-analysis of the deposited data

Results flagged for a closer look

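On 3 of the 149 named genes 1 of the 4 IgE PC arrays lay apart from the other 3 by more than Dixon's 95 percent limit. Chance gives about 1 such case in 20 groups, a share that 3 of 149 does not reach. Cd86 was at 5.9 on PC replicate 2 and between 4.26 and 4.35 on the others, all under the lowest GC array at 9.06. Os9 was at 9.64 on PC replicate 3 and between 10.02 and 10.07 on the others, all above the highest GC array at 7.62. Zbtb20 was at 7.5 on PC replicate 3 and between 8.22 and 8.35 on the others.

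The PC change differed between IgE and IgG1 cells for 11 genes by limma's interaction test, with these values for the IgE minus the IgG1 log2 difference. Lower in IgE cells were Ifitm3 (-3.12), Isoc1 (-2.35) and Smad3 (-2.22). Higher were Enam (2.79), Slc7a3 (2.23), Amn1 (2.03), Hvcn1 (1.92), Gcsam (1.90), Samsn1 (1.52), Cilk1 (1.48) and Ulk2 (1.38).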

How the results depend on the processing

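Over 15 other settings of the IgE comparison, the count of called genes stayed between 2178 (without IgE GC replicate 2) and 3284 (only the 7 arrays compared), within 1.5 times of 2860, and every shared call kept its direction. Requiring at least 2-fold as well left 1630 genes, 784 higher and 846 lower. Of 139 called named genes 126 were called in every setting and 13 were lost in 1 or more. Among 2234 values of named genes 2 changed sign, both of genes that were not called: Mcl1 was at -0.0043 after quantile normalization and Zbtb38 ran from -0.1736 to 0.0471 with 1 replicate left out, positive without IgE PC replicate 3. Of 675 counts of list genes 37 moved by more than 1.5 times. The interaction count of 11 became 23 with GFP-negative IgG1 GC cells, 1 with only the groups compared, 5 with the replicate block, and 2 to 37 with 1 replicate left out; the cause was not tested. The share of falling genes with the CHR letters was 14.059 percent with only the 250 bases before the start, a shorter window. Over all genes tested with a promoter it was 12.6 percent in that window. Same-numbered IgE PC and GC arrays had deviations that correlated at 0.08, 0.088 and 0.045. Those with different numbers correlated at -0.091 to 0.06. Whether arrays of the same number are paired was not tested. With the replicate block 2621 genes were called (1145 higher and 1476 lower), 2481 of them shared. Among named genes the blocked fit did not call Mki67 (adjusted p = 0.0521), Fbl (0.059), Zbtb20 (0.0593), Sdhc (0.061) and Tpi1 (0.0959). Proteins that end in an ER retrieval signal were not analysed here. The number of arrays limits the precision, and dim genes have compressed differences.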

Other observations

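Several genes outside the lists and the naming rule also rose, and were chosen here after their values were seen. Tent5c, a poly(A) polymerase that stabilises immunoglobulin mRNA, was at 10.7 in IgE PC and 6.92 in IgE GC on average (3.80, SE 0.27, limma adjusted p = 2.23e-08). The cytoplasmic polyadenylation element binding proteins Cpeb3 and Cpeb2, regulators of mRNA tail length, rose by 3.87 and 3.58, and their relative Cpeb4 by 0.73 (adjusted p = 0.0442). The neighbouring membrane protein genes Tmem176a and Tmem176b rose by 4.08 and 3.83.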
